A study of Mus musculus with 24 samples.

Results

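Liver RNA of wild-type mice was compared between libraries with the title suffix 8 and libraries with the title suffix 2, called class 8 and class 2 here. The comparison takes 8 of the 24 libraries of the series, chosen by their titles: 4 of class 8 and 4 of class 2, numbered 1 to 4 in each class. All have the genotype label wild type (WT) and the strain C3H/HeJ. The labels used here name no treatment, age or sex, and do not say what the suffix means. The series title concerns polyploid hepatocytes, so DNA content is a possible reading of the suffix, which no label states. Nothing in the labels says that the libraries of a class come from separate animals, so the spread behind every p-value is that of these libraries and may be technical. The transgenic (TGA) libraries of the same strain and classes, 4 and 4, serve as an outside comparison, and the labels do not name their transgene.

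Hepatocytes, the parenchymal cells of the liver, make plasma proteins and carry out lipid, amino acid and glucose metabolism. Many become polyploid when a cell replicates its DNA but does not complete cytokinesis. Within the lobule, the periportal zone favours urea synthesis and gluconeogenesis, and the pericentral zone favours glutamine synthesis and drug metabolism.

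The deposited values, on a natural log scale, were converted to log2 and are read as log2(normalised count + 1). All levels and differences below are on that scale unless stated, and a difference is class 8 minus class 2. Values of 0 are given as listed at 0, because genes that every cell uses were at 0 too. Of the 8 libraries, Gapdh (glycolysis) was listed at 0 in 7, Rplp0 (ribosome) in 7, Actb (beta-actin) in 6 and Eef1a1 (translation elongation) in 1. A difference of means thus mixes level with detection, and values are given library by library, in the order of numbers 1 to 4.

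The class 2 libraries differed widely in the number of genes detected. Number 1 had 15147 genes above 0, number 4 had 7570, number 3 had 2634 and number 2 had 2071, out of 35974. In class 8, numbers 1 to 4 had 2479, 3814, 2674 and 3676 genes above 0, all inside the range of class 2. The means were 3161 ± 682 in class 8 and 6856 ± 6055 in class 2 (SD, n = 4 each). An exact two-sided permutation test gave p = 0.4 for this difference of -3695 genes, where 4 against 4 cannot give less than 0.0286. Without class 2 number 1 the difference was -931 (exact permutation p = 0.829). When only deposited values of at least 1 were counted, class 8 had 68.25 genes more (exact permutation p = 0.829). The sequencing depth is unknown, since read totals cannot be recovered from these values.

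The commonest level above 0 moved with the number of genes detected. The commonest value above 0 was 0.08, 3.81, 2.91 and 0.60 in class 2 and 3.39, 1.62, 3.17 and 1.68 in class 8. The commonest level of class 8 number 1 is therefore above the median of the detected tested genes in class 2 number 1, which was 1.55. The commonest value is not the lowest. The lowest values above 0 were 0.0033 to 0.086 in the class 2 libraries and 0.038 to 0.12 in the class 8 libraries.

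**Figure D1:**
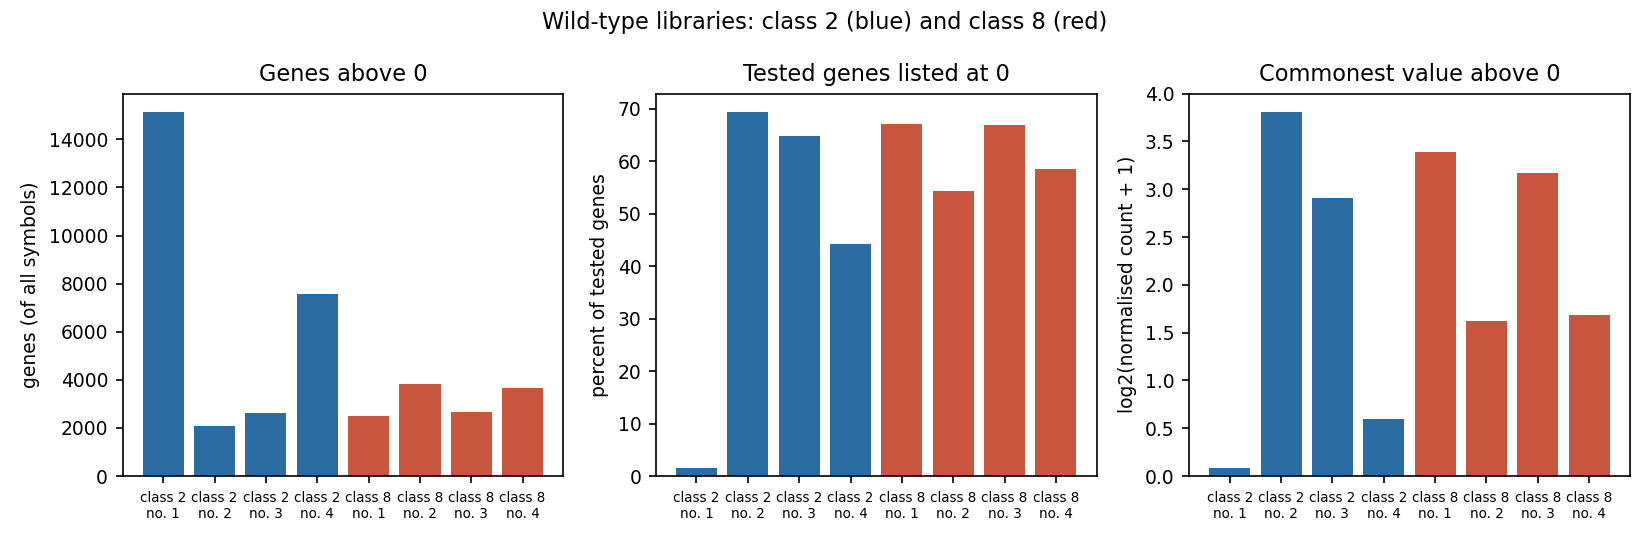
Bars give, for the 4 class 2 and 4 class 8 wild-type libraries, the number of genes above 0, the percent of the 4875 tested genes listed at 0 and the commonest value above 0 on the log2 scale. Class 2 number 1 stands apart with 15147 genes above 0 and 1.54% of tested genes at 0, and the class 8 libraries lie between 2479 and 3814 genes.

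Genes that define liver were detected unevenly. Of the values of 36 tested hepatocyte identity and plasma protein genes 47.9% were 0 in class 2 and 62.5% in class 8. The class 2 share includes number 1, where 1.54% of all tested genes were at 0, against 44.3% to 69.5% in the other class 2 libraries. For these 36 genes the share without number 1 was not computed. Alb (albumin), named after its values were seen, was 9.20, 7.01, 0 and 3.22 in class 2 and 0, 4.44, 4.17 and 0 in class 8, so it was at 0 in 1 class 2 library and 2 class 8 libraries. The summed level of these 36 genes was 3822 to 17561 normalised counts in class 2 and 2085 to 4435 in class 8. Fah, the last enzyme of tyrosine breakdown, was among the 10 tested genes with the highest means, at 12.32, 10.57, 12.08 and 11.35 in class 2 and 10.97, 9.16, 11.21 and 10.87 in class 8. Markers of other liver cells were sparse. Of the macrophage and Kupffer cell markers 11 of 21 were listed at 0 in all 8 libraries, Clec4f, Timd4 and Lyz2 among them, and the list summed to 2 to 31 normalised counts in class 2 and 4.54 to 268 in class 8. Of the endothelial markers 5 of 25 were at 0 in all 8, including Clec4g, with sums of 5.82 to 162 and 2.91 to 169. Of the stellate cell and fibroblast markers 9 of 22, including Lrat, Des and Col1a2, were at 0 in all 8, with sums of 0 to 9.32 and 15.1 to 119. Among these lists, the stellate cell list was the one whose sums did not overlap between the classes, and its part in the differences below was not tested. Cholangiocyte markers (4 of 14 at 0 in all 8, Krt7 and Spp1 among them) summed to 0 to 55.5 and 0 to 241. Lymphocyte markers (10 of 17, Cd3g among them) summed to 1.56 to 99.5 and 0 to 7.6, neutrophil markers (10 of 14, Ly6g and Mpo among them) to 0 to 42.7 and 0 to 9.28, and erythroid markers (8 of 11, the globins among them) to 0 to 8.54 and 0 to 14.8. In such bulk libraries, fewer cells of a type and less RNA per cell cannot be told apart.

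Most tested genes were detected in some libraries of each class and not in others. Of the 4875 tested genes, 367 were above 0 in all 8 libraries and 21 were at 0 in all 8. Values of 0 made up 45.1% of the 19500 class 2 values and 61.7% of the 19500 class 8 values. Without class 2 number 1 the class 2 share was 59.6%. A total of 1231 genes were at 0 in all 4 class 8 libraries, against 39 in all 4 class 2 libraries. Of the former, 487 were above 0 in 1 class 2 library and 21 in all 4. In the other direction, 0 genes were above 0 in all 4 class 8 libraries and at 0 in all 4 class 2 libraries.

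**Figure D2:**
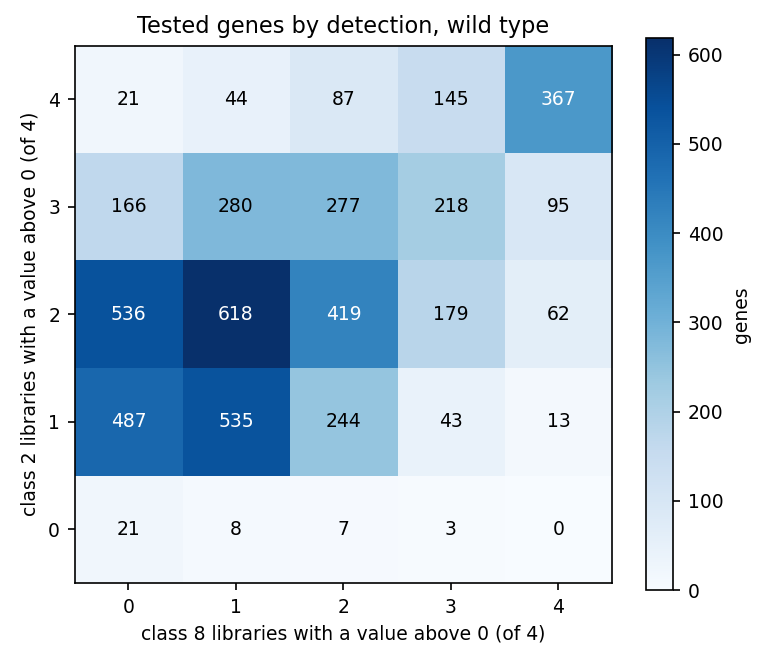
Each cell counts tested genes by the number of class 2 libraries and of class 8 libraries in which the gene is above 0. The cell for 4 class 2 and 4 class 8 libraries holds 367 genes, the cell for 4 class 2 and 0 class 8 libraries holds 21, and the cell for 0 class 2 and 4 class 8 libraries holds 0.

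No gene differed between class 8 and class 2 past the threshold: 0 of 4875 genes (0%) had an adjusted p under 0.05 in limma fitted to all 24 libraries. At an unadjusted p under 0.05 there were 237 genes (4.86%), of which 132 had lower values in class 8 (2.71%) and 105 higher (2.15%). Subtracting each library's mean over the tested genes moved the median difference from -0.17 to 0.01 and the split to 101 lower and 142 higher. With the number of genes above 0 as a covariate, 44.5% of the genes at an unadjusted p under 0.05 were lower, against 55.7% without it. The 4 class 8 and 4 class 2 values did not overlap for 39 genes lower in class 8 (0.8% of those tested) and 34 genes higher (0.697%). The genes described next have the smallest p, and none passed the adjusted threshold.

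The 12 lower genes with the smallest p included Sec14l2, Slc27a2 and Asl. Sec14l2, a cytosolic carrier of hydrophobic lipids, was 6.83, 6.32, 4.53 and 6.98 in class 2 and listed at 0 in all 4 class 8 libraries. The difference was -6.17 (SE 1.65, limma adjusted p = 0.519), and in the 4 WT class 4 libraries Sec14l2 was 6.12, 0, 5.68 and 0. Slc27a2, an acyl-CoA synthetase for very long chains, was 6.43, 5.60, 6.49 and 1.13 in class 2 and at 0 in all 4 class 8 libraries (difference -4.91, SE 1.51, limma adjusted p = 0.782). Asl, argininosuccinate lyase of the urea cycle, was 4.71, 6.78, 6.38 and 3.22 in class 2 and 0, 3.82, 0 and 0 in class 8, a difference of -4.32 (SE 1.34). Class 8 number 2 exceeded the lowest class 2 library, so the classes overlapped for Asl but not for Sec14l2 and Slc27a2.

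Sec14l2 and Slc27a2 were detected in 4 of 4 class 2 and 0 of 4 class 8 libraries, so the DNA before their start sites is shown. The sequences are from RefSeq on GRCm38.p6, not on mm9, the build that the submitters' processing notes name. They are the 250 bases before the annotated start, 5′ to 3′ on the gene's strand, at chr11:4118730-4118979 (minus strand) and chr2:126552774-126553023 (plus strand). Capitals mark GGGCGG or its reverse complement CCGCCC, the core of the GC box.
Sec14l2: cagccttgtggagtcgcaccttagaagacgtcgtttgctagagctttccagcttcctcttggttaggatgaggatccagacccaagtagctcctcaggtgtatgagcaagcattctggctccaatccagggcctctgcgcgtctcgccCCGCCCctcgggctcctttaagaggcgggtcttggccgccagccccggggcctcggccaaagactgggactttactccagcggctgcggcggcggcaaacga
Slc27a2: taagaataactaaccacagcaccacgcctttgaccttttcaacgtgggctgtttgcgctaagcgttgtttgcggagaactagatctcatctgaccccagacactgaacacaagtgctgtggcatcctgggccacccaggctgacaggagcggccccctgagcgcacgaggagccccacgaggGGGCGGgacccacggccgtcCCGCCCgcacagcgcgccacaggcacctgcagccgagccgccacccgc
The letters occur 1 time before Sec14l2 and 2 times before Slc27a2, with no overlap between copies. Of all 32851 promoters of this length 32.7% hold them on either strand. A match describes these letters and is no binding site.

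Wwc2, Sfi1, Syncrip and Zcchc2 were among the same 12 genes. Wwc2, a scaffold of the Hippo growth control pathway, was 1.30, 6.49, 5.04 and 5.61 in class 2 and at 0 in all class 8 libraries, a difference of -4.61 (SE 1.31, limma adjusted p = 0.768). Sfi1, a centrin-binding protein of the centriole, was 5.01, 5.76, 5.06 and 7.54 in class 2 and above 0 in class 8 number 4 alone, at 3.05 (difference -5.08). Syncrip, an RNA-binding protein of the hnRNP family, was 3.08 to 5.82 in class 2 and above 0 in class 8 number 1 alone, at 0.97 (difference -4.58). Zcchc2, a zinc finger gene, was 4.05 to 7.10 in class 2 and above 0 in class 8 number 2 alone, at 3.71 (difference -4.70). None of these 4 genes overlapped between the classes.

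Ganab, Ghitm and a pair of uncharacterised transcripts were also among the 12 lower genes with the smallest p. Ganab, the catalytic subunit of the ER glucosidase that trims N-glycans, was 3.81, 0, 6.33 and 7.24 in class 2, and Ghitm, an inner mitochondrial membrane protein, was 1.83, 0, 5.34 and 5.87. Both were at 0 in all class 8 libraries, and their differences were -4.35 and -3.26. Gm34067 was 0.41, 4.58, 5.13 and 2.36 and LOC108169096 was 0.53, 6.02, 2.91 and 5.11 in class 2, and both were at 0 in class 8 (differences -3.12 and -3.64). Gm34067 passed the threshold when the 4 libraries with over 7000 genes above 0 were left out, 2 of them class 2 numbers 1 and 4 (difference -4.86, SE 0.90, limma adjusted p = 0.0285). Those 2 libraries hold its lowest class 2 values, 0.41 and 2.36, so this pass supports nothing by itself.

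The 12 genes with higher values in class 8 and the smallest p held more provisional symbols: 6 of 12 (50%) have a Gm or LOC number or the like, against 12.3% of all tested genes. Gm33172, uncharacterised, was 3.39, 2.19, 3.17 and 1.97 in class 8 and 0.13, 0, 0 and 0 in class 2 (difference 2.65, SE 0.63, limma adjusted p = 0.519). Its values in class 8 numbers 1 and 3 are the commonest values above 0 of those libraries. It passed the threshold with no filter on low values (limma adjusted p = 0.0223), in a fit over all 35974 symbols. Its 4 class 8 values alone meet the main filter, so this pass supports nothing by itself.

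Fip1l1, Klf13 and Zfp536 were among these 12 higher genes. Fip1l1, a subunit of the mRNA cleavage and polyadenylation machinery, was 6.15, 0, 5.49 and 3.16 in class 8 and 0.66, 0, 0 and 0 in class 2 (difference 3.53, SE 0.93, limma adjusted p = 0.519). Without class 8 number 2, the class 8 library at 0, it passed the threshold (difference 4.77, SE 0.92, limma adjusted p = 0.0231). That fit removes the only class 8 value of 0 of Fip1l1, so this pass supports nothing by itself. Klf13, a Krüppel-like transcription factor, was 5.17, 2.19, 5.60 and 4.01 in class 8 and above 0 in class 2 number 1 alone, at 1.68 (difference 3.82, SE 1.33), with no overlap. Zfp536, a zinc finger repressor known from neurons, was 6.46, 0, 4.29 and 7.05 in class 8 and 0.94, 0, 0 and 0.66 in class 2 (difference 4.05), and class 8 number 2 was again at 0.

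Samd8 and Nhs showed the same uneven detection. Samd8, a ceramide phosphoethanolamine synthase, was 3.39, 2.19, 3.17 and 0 in class 8, and Nhs, a regulator of actin remodelling, was 2.51, 0, 3.81 and 3.84. Each was at 0 in 1 class 8 library, and their class 2 values did not exceed 0.42. The uncharacterised Gm40402, Gm9861 and LOC108168326 (differences 3.52, 2.73 and 1.70) overlapped, whereas Gm40384 (2.59) and Gm40855 (4.02) were above 0 in all 4 class 8 libraries without overlap.

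The values of these genes were counted against the commonest level of their library. Of the 40 class 8 values above 0 of the 12 higher genes, 14 (35%) were at or below the commonest value of their library, and over all tested genes the class 8 share was 30.2%. Of the 46 class 2 values above 0 of the 12 lower genes 2.17% were, against 15.6% over all tested genes in class 2. For the 34 genes higher without overlap the class 8 share was 41.9%, and 35.3% of them had a provisional symbol, against 12.8% of the 39 genes lower without overlap. The part of this level in the differences was not tested.

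**Figure D3:**
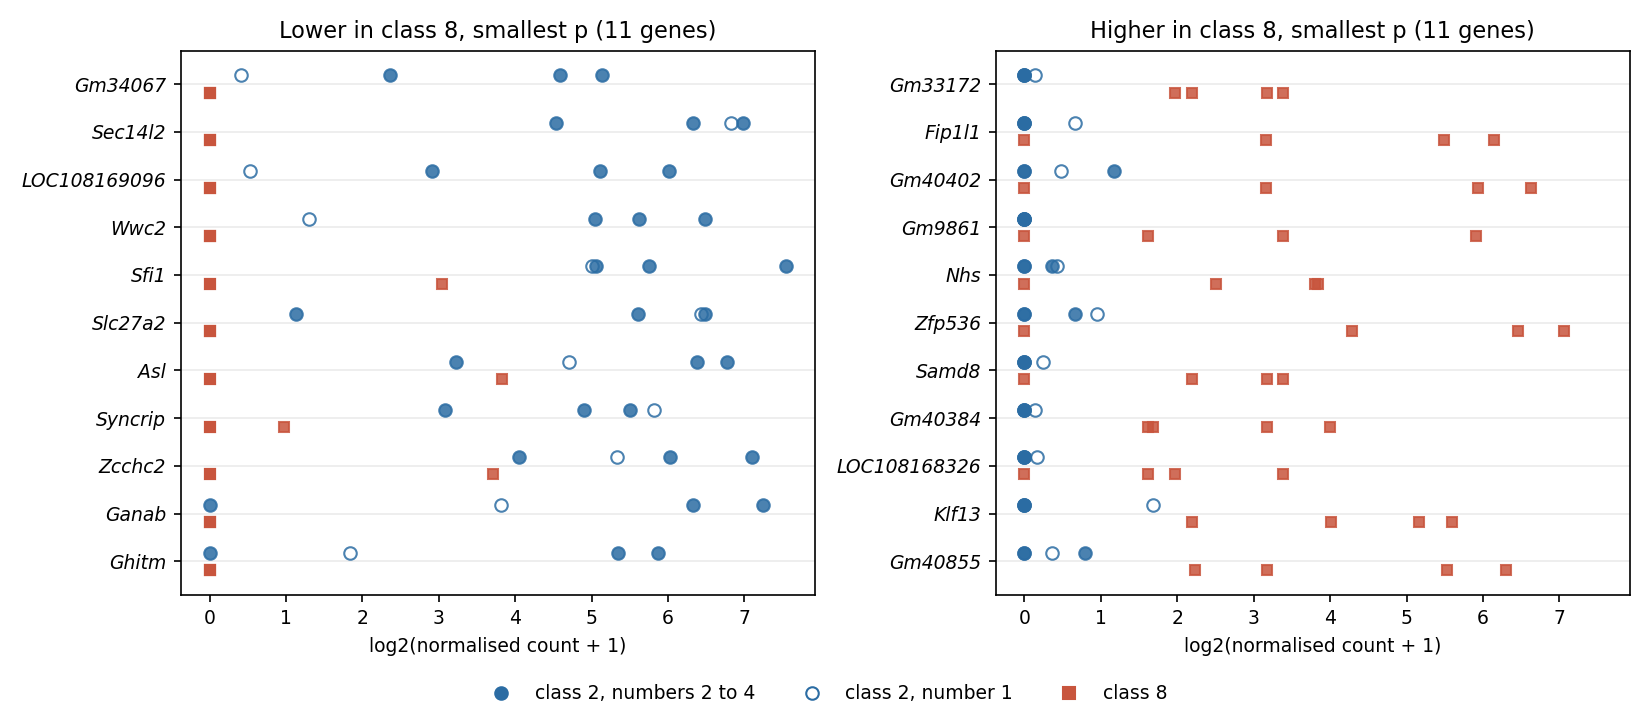
Points are single wild-type libraries (blue circles for class 2, with number 1 open, and red squares for class 8) for 11 of the 12 genes lower and 11 of the 12 genes higher in class 8 with the smallest p, on the log2(normalised count + 1) scale. Sec14l2 lies between 4.53 and 6.98 in class 2 and at 0 in class 8, and Gm33172 lies between 1.97 and 3.39 in class 8 and at most at 0.13 in class 2.

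Among the 367 genes above 0 in all 8 libraries, 236 had higher and 131 lower means in class 8, with a median difference of 0.31. Over all 4875 tested genes 2100 were higher and 2754 lower. These 367 were selected on detection, so their count supports nothing by itself. At an unadjusted p under 0.05 there were 1 higher and 2 lower among them. Fgf9, a secreted growth factor, was 8.40, 7.21, 3.99 and 6.57 in class 8 and 1.89, 4.81, 3.74 and 3.42 in class 2 (difference 3.08, SE 1.45, limma adjusted p = 0.978), with class 8 number 3 inside the class 2 range. Gm30515 was 2.74 to 4.16 in class 8 and 0.26 to 2.28 in class 2, with no overlap (difference 2.58). Wasf3, an actin regulator of the WAVE family, and the uncharacterised Gm12514, Gm38559 and Gm42187 differed by 1.91, 2.72, 2.56 and 2.53, and all 4 overlapped.

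Fam214a and Ttc39c were measured in every library and were lower in class 8 without overlap. Fam214a was 5.47, 7.29, 3.54 and 5.49 in class 2 and 2.69, 2.85, 2.45 and 0.77 in class 8 (difference -3.26, SE 1.46, limma adjusted p = 0.947). Ttc39c, a tetratricopeptide repeat gene, was 7.86, 6.98, 7.56 and 7.42 in class 2 and 5.95, 6.48, 3.95 and 3.06 in class 8 (difference -2.60, SE 1.50, limma adjusted p = 0.985). Sorbs3, an adaptor of cell adhesion, differed by -3.15, with class 8 number 2 (4.67) inside the class 2 range of 3.12 to 6.26. Map3k13, a kinase upstream of JNK, and LOC101056014 differed by -2.17 and -1.0 and overlapped. Grik2, a glutamate receptor subunit, differed by -1.87 through class 2 number 4, at 7.33, while the other class 2 libraries did not exceed 1.58.

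**Figure D4:**
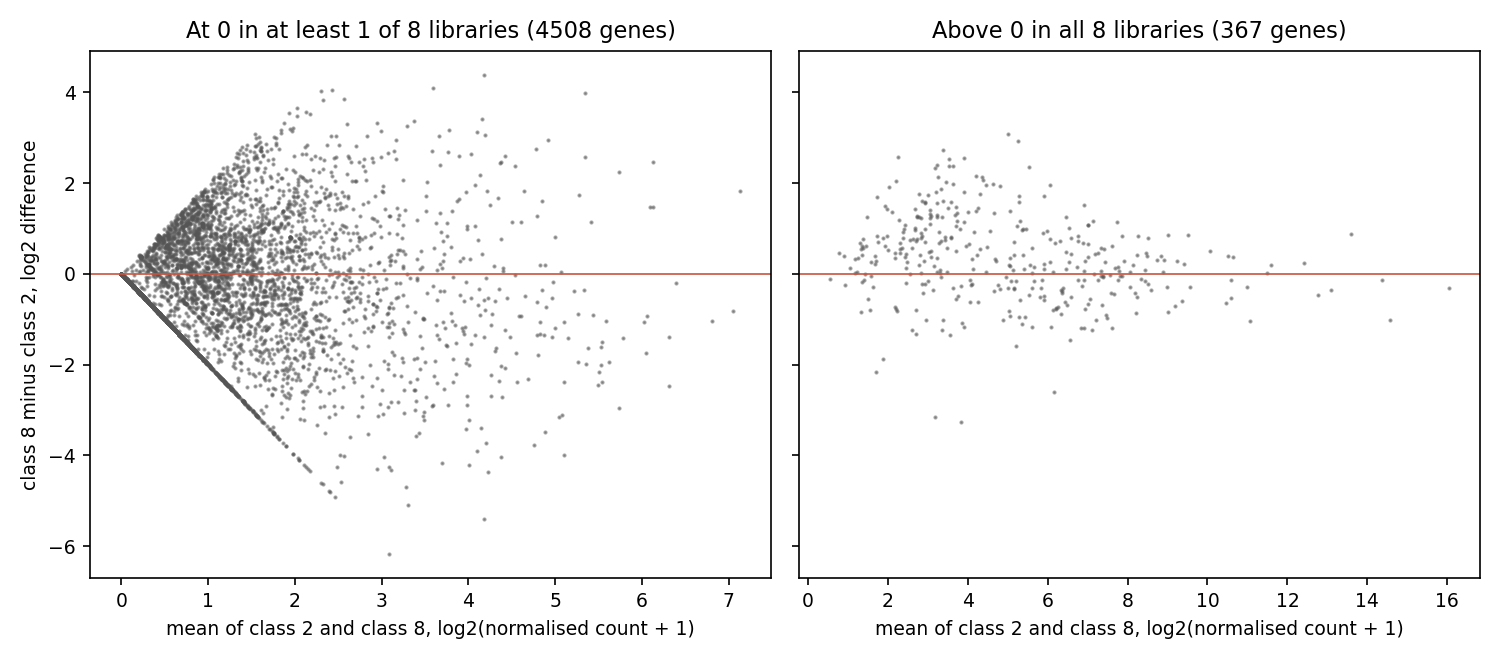
Each point is a tested gene, with its mean over class 2 and class 8 on the horizontal axis and the class 8 minus class 2 difference on the vertical axis, both on the log2 scale. Genes at 0 in at least 1 library fan out along straight edges, and the 367 genes above 0 in all 8 libraries have a median difference of 0.31.

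Gene lists were described by their counts, beside 56.5% lower and a median difference of -0.17 over all tested genes, of which 2.71% were lower at an unadjusted p under 0.05. In each list 0 genes passed the adjusted threshold. Some genes belong to more than 1 list, so the lists are not independent of each other. Fatty acid synthesis genes had lower means in class 8 for 18 of 20 (median -1.31). Srebf1, the lipogenic transcription factor, was 6.65, 7.40, 0 and 0 in class 2 and at 0 in class 8 (difference -3.51, SE 1.58). Fads2, a fatty acid desaturase, was 7.77, 6.61, 7.80 and 4.76 in class 2 and 7.08, 6.98, 0 and 3.37 in class 8, so class 8 number 3 alone was at 0. Thrsp, a lipogenic regulator, was 7.29, 7.10, 6.40 and 0.91 in class 2 and 0, 3.71, 6.43 and 0 in class 8. Fatty acid oxidation and ketogenesis genes were lower for 14 of 17 (median -0.67), Slc27a2 among them. Acsl1, a long-chain acyl-CoA synthetase, was 1.96 to 6.37 in class 2 and above 0 in class 8 number 1 alone, at 6.43. Eci1, an enoyl-CoA isomerase, had the higher mean in class 8 through the same library, at 5.74. Of 4 tested cholesterol genes 2 were lower, among them Srebf2, the sterol-regulated transcription factor, at -0.91.

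Genes of secreted liver proteins and hepatocyte identity were lower for 31 of 36 (median -1.19). Ambp, the precursor of a plasma carrier and a protease inhibitor, was 3.97, 4.53, 3.81 and 0 in class 2 and above 0 in class 8 number 2 alone, at 1.62 (difference -2.67, SE 1.41). Apoc1, an apolipoprotein, was 6.29, 5.03, 6.54 and 1.71 in class 2 and 0, 2.19, 5.36 and 0 in class 8 (difference -3.01). Proc, the anticoagulant protein C, was 6.81, 0, 5.60 and 0 in class 2 and at 0 in class 8. Acute phase genes were lower for 13 of 16 (median -1.33), with complement C3 at -3.51, the plasma protein Itih4 at -2.62 and Stat3, which relays interleukin-6 signals, at -2.03. Male-biased genes were lower for 8 of 10 (median -0.75), with Serpina1e, an alpha-1-antitrypsin, at -2.90, C8a of complement at -1.78 and Selenbp2, a selenium-binding protein, at -1.74. Hepatocyte transcription factors were lower for 11 of 18 (median -0.18, or 0.12 with the number of genes above 0 as a covariate). Rxra, a partner of nuclear receptors, differed by -2.99, and the pioneer factors Foxa1 and Foxa3 differed by 2.52 and 1.46.

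The zonal lists had medians of opposite sign in WT, and whether they differ was not tested. Periportal genes were lower for 21 of 26 (median -0.62), with 2 of them lower at an unadjusted p under 0.05 (Asl and Cps1), where 2.71% of all tested genes were. Cps1, which makes carbamoyl phosphate for the urea cycle, was 8.60, 6.32, 6.09 and 7.36 in class 2 and 0, 0, 7.26 and 5.18 in class 8 (difference -3.99, SE 1.60), at 0 in class 8 numbers 1 and 2 and inside the class 2 range in number 3. Hal, of histidine breakdown, had the opposite sign (difference 2.34), from 0, 5.75, 5.13 and 0 in class 8 and 1.51, 0, 0 and 0 in class 2. Pericentral genes were lower for 8 of 16 (median 0.13). Glul, the glutamine synthetase of cells around the central vein, was 2.90, 0, 0 and 0 in class 2 and 0, 3.71, 0 and 5.77 in class 8. Cyp27a1 of bile acid synthesis and Cyp1a2 of drug metabolism differed by -2.73 and -1.70.

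Lists of amino acid, glucose and drug metabolism and of protein folding had medians below 0. Urea cycle and amino acid breakdown genes were lower for 28 of 40 (median -0.69), with 4 of them lower at an unadjusted p under 0.05, where 2.71% of all tested genes were. Asl and Cps1, also in the periportal list, are among these 4. Cbs, of homocysteine breakdown, was 5.66, 3.81, 6.36 and 0 in class 2 and at 0 in class 8 (difference -3.96, SE 1.50). Gluconeogenesis and glucose handling genes were lower for 15 of 20 (median -0.87), with the mitochondrial carboxykinase Pck2 at -1.46. Xenobiotic metabolism genes were lower for 13 of 20 (median -0.43), with the carboxylesterase Ces3a at -2.80, the flavin monooxygenase Fmo1 at -2.45 and the cytochrome Cyp2c70 at -1.68. Of the ER stress genes 13 of 19 were lower (median -0.54), with the folding factors Dnajb9, Pdia3 and Dnajb11 at -3.15, -1.90 and -1.76.

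Mitochondrial-encoded transcripts were lower for 4 of 7 (median -0.21, or 0.12 with that covariate and 0.42 without class 2 number 1). ND2, a subunit of respiratory complex I, was 5.69, 6.69, 8.47 and 8.57 in class 8 and 8.20, 4.97, 0 and 6.41 in class 2 (difference 2.46), ND4 of the same complex differed by 2.58, and COX1, of cytochrome oxidase, differed by -1.34. Nuclear-encoded respiratory chain genes were lower for 11 of 13 (median -0.45), with 94.2% of their class 8 values at 0. Without class 2 number 1 they were lower for 2 of 13, with a median of 0. Most of the rest then differed by exactly 0, because they were at 0 in every remaining library. Ndufv1, Atp5a1 and Ndufb9, subunits of complex I and of ATP synthase, were above 0 in class 2 number 1 alone of the 8 libraries, at 5.53, 6.22 and 5.92.

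Ribosomal protein genes were lower for 15 of 21 (median -0.34, or 0.068 with that covariate), with 86.9% of class 8 values at 0. Rpsa was 6.70, 0, 6.71 and 3.42 in class 2 and at 0 in class 8 (difference -4.21, SE 1.68), and Rpl23a and Rpl9 were above 0 in class 2 numbers 1 and 4 alone. These families have many processed pseudogenes, and reads shared with them could be split. Small nucleolar and Cajal body RNAs, which guide RNA modification, were lower for 10 of 14 (median -0.90). Snora36b was 0.28, 4.97, 3.86 and 0 in class 2 and at 0 in class 8 (difference -2.28), and Snora78 and Snora81 differed by -2.31 and -3.10.

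Genes of the cell cycle and of ploidy control were mostly below the tested range. Of 39 genes of mitosis, cytokinesis and ploidy control, 11 were at 0 in all 8 libraries, 14 were above 0 in at least 1 class 8 library and 27 in at least 1 class 2 library, or 13 without class 2 number 1. For 40 genes of DNA replication these counts were 14, 9, 25 and 13. Anln, the cytokinesis protein anillin, was above 0 in 2 class 2 libraries and 1 class 8 library and did not exceed 0.82. Cdk1, the mitotic kinase, Mki67, a proliferation marker, and Cdkn1a, the cell cycle inhibitor p21, were each above 0 in 1 class 2 library and in 0 class 8 libraries. Their values there were 4.53, 0.083 and 0.35, the last 2 low on this scale. Aurka of the mitosis list and Mcm6 of the replication list were each above 0 in 1 class 8 library and 0 class 2 libraries, at 6.16 and 6.23. Ccnb1, the mitotic cyclin, was at 0 in all 8. Of the 6 tested members 4 had higher means in class 8 (median 0.90). Yap1, the co-activator that the Hippo pathway restrains, was 5.63, 4.01, 6.01 and 0 in class 8 and above 0 in class 2 number 1 alone, at 1.36 (difference 3.57, SE 1.50, limma adjusted p = 0.929). Incenp, of the chromosomal passenger complex, was 0, 4.01, 0 and 5.95 in class 8 (difference 2.16), and cyclin D1 (Ccnd1) differed by -1.70. Tumour suppressor genes were lower for 8 of 18 (median 0.32), with Keap1, the sensor of oxidative stress, at -2.27 and Smad4, of TGF-beta signalling, at -2.08. Of the p53 targets and growth arrest genes 5 of 6 were lower (median -0.65), or 2 of 6 (median 0) without class 2 number 1, with Zmat3, Ei24 and Bbc3 at -1.35, -1.0 and -0.99 over all libraries. Without that library Bbc3 was at 0 in every remaining library and differed by exactly 0.

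Among markers of other cell types, endothelial and cholangiocyte genes had at least 3 tested members. Endothelial markers were lower for 4 of 7 (median -0.77), with Wnt2, a ligand made by central vein endothelium, at -1.16, Vwf, the von Willebrand factor, at -2.32 and Stab2, a scavenger receptor, at -1.24. Vwf and Stab2 were each at 0 in all 4 class 8 libraries and in 2 class 2 libraries. Flt1, Bmp2 and Nrp1 went the other way, at 0.29, 0.36 and 0.13. Of the cholangiocyte markers 1 of 3 was lower, with the anion exchanger Slc4a2 at 0.93, the chloride channel Cftr at -0.52 and Pkhd1, of the primary cilium, at 0.28.

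The list medians moved when class 2 number 1, the library with the most genes detected, was left out. Without it 0 genes passed the adjusted threshold (0%, limma), and 112 were lower (2.3%) and 105 higher (2.15%) at an unadjusted p under 0.05. The median over all tested genes went from -0.17 to 0, and the genes lower in class 8 from 2754 to 2049. Hepatocyte identity genes were then lower for 16 of 36 and fatty acid oxidation genes for 6 of 17, both with a median of 0. Gluconeogenesis genes (9 of 20 lower), urea cycle and amino acid breakdown genes (17 of 40), ER stress genes (9 of 19), xenobiotic metabolism genes (7 of 20), ribosomal protein genes (7 of 21) and male-biased genes (3 of 10) also had a median of 0. Genes listed at 0 in every remaining library differed by exactly 0 and count as neither lower nor higher. The genes not counted as lower here were thus not all higher. Fatty acid synthesis genes had a median of -0.74, with 12 of 20 lower, small nucleolar RNAs of -0.49 (8 of 14), acute phase genes of -0.28 (8 of 16) and periportal genes of -0.14 (14 of 26). Pericentral genes, hepatocyte transcription factors and tumour suppressors had medians of 0.48, 0.63 and 0.80.

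Single genes were followed in the same way. Without class 2 number 1, Sec14l2 differed by -5.95, Slc27a2 by -4.41, Asl by -4.50 and Wwc2 by -5.71, while Gm33172 differed by 2.68 and Klf13 by 4.24. Counted anew without it, 43 genes were lower (0.882%) and 49 higher (1.01%) without overlap. Fewer class 2 libraries separate more easily, so these counts are not directly comparable with those from all 8 libraries.

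**Figure D5:**
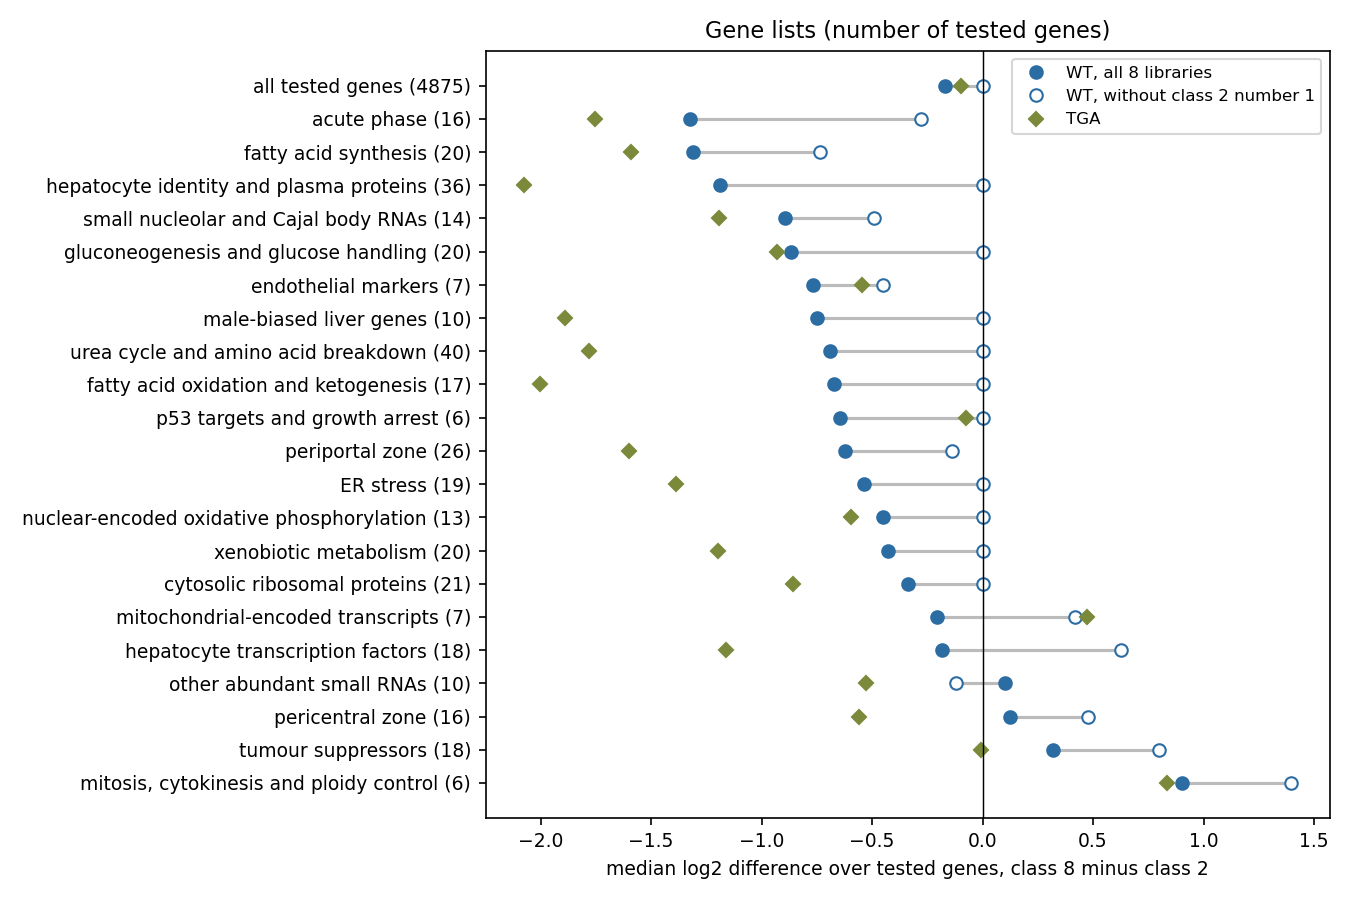
Points are median log2 differences, class 8 minus class 2, over the tested genes of each list, with all 8 wild-type libraries, without class 2 number 1, and in the transgenic libraries. Leaving out that library moved the median of hepatocyte identity genes from -1.19 to 0, and in the transgenic libraries it was -2.07.

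The TGA libraries share no library with the wild-type comparison. They had 2816 to 6468 genes above 0 in class 2 and 2110 to 9096 in class 8, and 0 genes passed the adjusted threshold between them (0%, limma). Slc27a2 was 7.40, 6.64, 7.20 and 7.07 in TGA class 2 and 0, 3.37, 1.61 and 0 in TGA class 8, again without overlap (difference -5.83). Asl was 2.12, 5.19, 6.38 and 5.61 in TGA class 2 and 0, 1.24, 0.83 and 0 in TGA class 8, also without overlap (difference -4.31). Fam214a differed by -2.79 in TGA. Medians in TGA were -2.0 for fatty acid oxidation, -2.07 for hepatocyte identity, -1.59 for fatty acid synthesis and -1.60 for periportal genes, against -0.10 over all tested genes. The pericentral median was -0.56 in TGA, with 9 of 16 genes lower, so the zonal medians had the same sign there.

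Other named genes, picked by their sign, had the opposite sign in TGA. Sec14l2 was 7.87, 7.18, 4.97 and 6.30 in TGA class 8 and 0, 6.87, 3.71 and 6.79 in TGA class 2, a difference of 2.24 against -6.17 in WT. Wwc2 differed by 1.19 in TGA. Klf13 was above 0 in all 4 TGA class 2 libraries and at 0 in 3 of 4 TGA class 8 libraries (difference -1.90), and Hal differed by -2.93. For the difference between the genotypes 0 genes passed the adjusted limma threshold (0%), with 198 genes (4.06%) at an unadjusted p under 0.05. Gm33172, Gm34067, LOC108169096, Gm9861 and Nhs were at 0 in all 8 of these TGA libraries.

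Of the 39 genes lower without overlap in WT, 24 (61.5%) were lower in TGA, against 52.7% of all tested genes. Of these 39, 2 had no overlap in TGA either: Slc27a2 and Trim8, a ubiquitin ligase named after its values were seen. Trim8 was 4.36, 2.77, 6.66 and 0.30 in WT class 2 and at 0 in WT class 8 (difference -3.52, SE 1.45), and differed by -3.35 in TGA. Of the 34 genes higher without overlap in WT, 25 (73.5%) were higher in TGA, against 42.9% of all tested genes, and 0 had no overlap there. Some of these 34, such as Gm40384 and Gm40855, were at 0 in all 4 TGA class 2 libraries. Such genes could not be lower in TGA class 8, so the 2 shares are not directly comparable. In TGA 125 genes were lower without overlap (2.56%) and 18 higher (0.369%). Across the 4875 genes the class differences of the genotypes had a Pearson r of 0.14 and a Spearman rho of 0.14, and across the 367 genes above 0 in all 8 WT libraries r was 0.34. These are descriptions across genes, which share libraries and are not independent.

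The most abundant transcripts overlapped between the classes. Mir6236 held the highest value of the table, 16.41, in 6 of the 8 libraries, so its difference of -0.30 is limited by that ceiling. Rpph1, the RNA of RNase P, was 12.56, 13.27, 13.42 and 12.73 in class 2 and 12.56, 12.73, 12.08 and 12.73 in class 8. Rn7sk, the RNA that holds back transcription elongation, was named through its list and is not among the 10 with the highest means. It was at 0 in class 8 number 3 alone and differed by -1.03. Cyb5r3, a cytochrome b5 reductase, was 13.71 to 14.75 over the 8 libraries, and Pigr, the polymeric immunoglobulin receptor, was 12.73 to 13.71. Rorb, a nuclear receptor gene known from retina and brain, was 15.54, 13.42, 13.42 and 13.71 in class 8 and 13.42, 12.73, 12.98 and 13.42 in class 2, highest in class 8 number 1 (difference 0.89). Spop, a ubiquitin ligase adaptor, Gm31305 and 0610038B21Rik differed by 0.20, 0.25 and 0.03. Fah, given above, differed by -1.03 (SE 0.90). The limma unadjusted p was 0.114 for LOC101056014 and 0.259 or more for the other 9 of the 10 most abundant.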

How the data were processed

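RNA was measured in 24 mouse liver libraries, of which 8 form the comparison. Per the labels' protocols, a kit meant for formalin-fixed and paraffin-embedded material gave the RNA, NuGen reagents the libraries, and single-end sequencing reads of 75 bp. RNA from such material is often fragmented, which can leave genes undetected, and the labels name no batch. The build was mm9 and the tools included TopHat and edgeR, per the submitters' processing notes. Tool versions, the counter and the kind of normalization are not stated there. The authors deposited 1 table of 35974 symbols by 24 libraries, in natural log units. That unit is a reading of the values: 20 of 24 libraries share the highest value, as quantile normalization leaves it, so they were read as the natural log of normalised count + 1 (pseudocount 1). That normalization gives low ranks a high value in libraries with few genes detected.

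Division by the natural log of 2 gave log2 values. The 4875 genes that reached a deposited value of 1 in 4 or more of the 24 libraries were tested with limma 3.58.1 in R 4.3.3, with a mean-dependent prior, 6 group means over 24 libraries, and Benjamini-Hochberg adjustment over all tested genes (threshold 0.05). The tests first planned for counts were not used, because the values are not counts. The limma script was tested on simulated data. Library measures were compared by exact two-sided permutation of 4 against 4. No overlap means that the 4 values of one class all exceed those of the other.

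Named genes are the 12 with the smallest p in each direction, the 6 with the smallest p in each direction among those above 0 in all 8 libraries, the 3 with the smallest p of each list with at least 3 tested genes (23 of 30 lists), and the 10 with the highest means. Some genes that these rules select are not reported here. Members and lists were chosen with earlier results of these data known. Alternatives left out libraries or numbers, and varied filter, pseudocount, centring, covariate, weights, block and the libraries fitted. Promoters are from RefSeq (GRCm38.p6).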

Additional observations from a re-analysis of the deposited data

Results flagged for a closer look

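For each named gene, the highest or lowest of the 4 WT libraries of a class was compared with the other 3, and a library was marked when its gap to the nearest other exceeded 0.829 of the range (Dixon's critical value). Of 177 groups of 4 examined 48 were marked, where chance marks about 1 in 20 when values vary evenly. In 34 of the 48 the other 3 libraries were all listed at 0, so the mark records detection in a lone library. All values are levels on the log2(normalised count + 1) scale.

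Class 2 number 1 was the library above 0 for Gm33172 at 0.13, Fip1l1 at 0.66, Samd8 at 0.24, Gm40384 at 0.13, LOC108168326 at 0.17, Klf13 at 1.68, Eci1 at 0.17, Hal at 1.51, Glul at 2.90, Bbc3 at 3.98, Yap1 at 1.36, Incenp at 1.32, Ndufv1 at 5.53, Atp5a1 at 6.22 and Ndufb9 at 5.92. Class 2 number 2 was the highest library, with the others at least in part above 0, for Cyp2c70 at 6.08. Class 2 number 2 was the lowest library, with the others at least in part above 0, for COX1 at 0 and Mir6236 at 15.54. Class 2 number 4 was the highest library, with the others at least in part above 0, for Grik2 at 7.33. Class 2 number 4 was the lowest library, with the others at least in part above 0, for Slc27a2 at 1.13, Thrsp at 0.91 and Ambp at 0.

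Class 8 number 1 was the library above 0 for Syncrip at 0.97, Acsl1 at 6.43, Eci1 at 5.74 and C8a at 4.66. Class 8 number 1 was the highest library, with the others at least in part above 0, for Srebf2 at 9.10 and Rorb at 15.54. Class 8 number 1 was the lowest library, with the others at least in part above 0, for Mir6236 at 14.32. Class 8 number 2 was the library above 0 for Asl at 3.82, Zcchc2 at 3.71, Ambp at 1.62, Cyp1a2 at 2.19, Gckr at 1.48, Dnajb9 at 3.28, Itih4 at 2.45, Snora78 at 3.28, Selenbp2 at 4.94 and Wnt2 at 0.81. Class 8 number 2 was the highest library, with the others at least in part above 0, for Sorbs3 at 4.67. Class 8 number 2 was the lowest library, with the others at least in part above 0, for Fah at 9.16. Class 8 number 3 was the library above 0 for Smad4 at 1.07. Class 8 number 3 was the lowest library, with the others at least in part above 0, for Rn7sk at 0 and Pigr at 12.73. Class 8 number 4 was the library above 0 for Sfi1 at 3.05, Cyp27a1 at 2.26, Stat3 at 4.29 and Ccnd1 at 5.87.

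No difference between the genotypes passed its adjusted threshold, and no column was left unused.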

How the results depend on the processing

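The number of genes past the adjusted threshold, 0, became 1 for Gm33172 with no filter on low values and with a value of at least 1 in 4 of the 8 WT libraries, which it meets through its class 8 values alone. It also became 1 without the 4 libraries with over 7000 genes above 0 (Gm34067) and without class 8 number 2 (Fip1l1). Those fits remove the lowest class 2 values of Gm34067 and the class 8 value of 0 of Fip1l1, so neither pass supports anything by itself. The number past the threshold ranged from 0 to 1 when a library or number was left out, and was 0 in every other setting run. Counts at an unadjusted p under 0.05 were 105 higher and 132 lower in the main fit, of 4875 genes tested. Over the same number of genes they became 33 and 65 in the 8 libraries alone and 32 and 132 in the 12 WT libraries. Removal of the 4 libraries that exceed 7000 detected genes gave 68 and 150, again of 4875. Other settings changed the number of genes tested, so their counts cannot be set directly against 105 and 132. With no filter they were 345 and 1415 of 35974 genes. A value of at least 1 in 8 of 24 libraries gave 30 and 70 of 2105. The filter on the 8 libraries gave 52 and 44 of 1381, and values of 0 as missing gave 138 and 27 of 3595. With a replicate block in the 8 libraries 0 genes passed, with 23 higher and 64 lower by the unadjusted p, and 0 in the interaction. Same-numbered libraries were not treated as pairs: the correlation of their deviations was -0.06 to 0.06, and 0 of 4 class 8 and 2 of 4 class 2 libraries correlated best with their own number. Leaving out a library or number gave 39 to 129 higher and 43 to 245 lower genes without overlap, of 4875 tested. Fewer libraries separate more easily, so these counts cannot be set against the 34 and 39 of the main comparison. The difference in genes above 0 reversed to 68.25 when values of at least 1 were counted. The median over all tested genes was 0.87 with values of 0 as missing, where undetected genes do not enter.

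Of 95 named genes, 38 had a value in all 26 settings, and 30 of these had the same direction and side of the threshold throughout. Values could be fitted for 66 genes with values of 0 as missing, 63 with the 8 of 24 filter, 42 with the filter on the 8 libraries and 95 in the other settings. With values of 0 as missing, signs reversed for Acsl1 (1.90), Stat3 (0.15), Ccnd1 (1.64), COX1 (0.96), Snora81 (0.43) and Rn7sk (1.07). Over the fits without a library or a number, the difference ranged across 0 for COX1 (-3.16 to 0.78), Mir6236 (-0.70 to 0.29), Slc4a2 (-0.37 to 2.50) and Pkhd1 (-0.58 to 1.62), each also without class 8 number 1. It did so for Eci1 (-0.0417 to 1.87) without class 8 number 1 alone, for Rn7sk (-2.14 to 1.07) without number 3 or class 8 number 3, for Selenbp2 (-2.98 to 0.21) without number 1, for Foxa3 (-0.10 to 2.34) without number 3 and for Zmat3 without number 4 (-2.12 to 0.00121). With a pseudocount of 10 Pkhd1 was -0.0218. With genes above 0 as a covariate Rn7sk was 0.12 and Cftr 0.0812, and without the 4 libraries with over 7000 genes COX1 was 0.46 and C8a 1.16. The cause of these reversals was not tested. Detection limits all values, since depth is unknown and libraries with few genes detected hold mostly values of 0. The interaction was not fitted where only WT libraries entered.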
